A study of Homo sapiens with 4 samples.

Results

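The RNA of 10 genes of the NF-kB system is described here: the 5 subunits NFKB1, NFKB2, REL, RELA and RELB, the IkB family genes NFKBIA, NFKBIB, NFKBIE and BCL3, and TNFAIP3, which encodes the ubiquitin-editing enzyme A20. They were chosen by name, with earlier results of these data known. Every probe set that the array platform's annotation gives to one of them alone was kept. That left 20 of the 41091 one-gene probe sets on the array, covering 9 of 19775 genes. BCL3 has no value below, because both of its probe sets are annotated to a second gene as well.

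NF-kB is a family of dimeric transcription factors built from these subunits. In resting cells the IkB proteins hold the dimers in the cytoplasm. Their breakdown after phosphorylation frees the canonical dimers, while processing of the NFKB2 precursor frees dimers with RELB. Several inhibitors, NFKBIA and TNFAIP3 among them, are themselves NF-kB targets and so form feedback brakes. Constant NF-kB activity is a hallmark of the Reed-Sternberg cells of Hodgkin lymphoma, where genetic loss of IkB proteins and of TNFAIP3 recurs.

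The samples were 4 single-colour oligonucleotide arrays of KM-H2, an established Hodgkin lymphoma line in which the class II transactivator gene CIITA is fused to the transcript BX648577. They formed a knockdown and a control group of 2 arrays each. Knockdown cells had been transduced with a lentiviral vector that expresses a small hairpin RNA against the BX648577 part of the fusion, and control cells with a non-silencing control. All 4 arrays thus came from transduced cells of a single line. Only 1 hairpin was used, and the labels do not say whether replicates were separate transductions, so p-values measure the spread between these arrays, which may be technical. The designed hairpin is printed because it alone defines the knockdown group, with its complementary arms of 23 bases in capitals.
hairpin against BX648577: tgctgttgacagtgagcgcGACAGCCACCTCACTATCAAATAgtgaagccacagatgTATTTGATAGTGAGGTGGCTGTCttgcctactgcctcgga

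Each deposited value is an intensity on a linear scale, and the array means lay between 53.3 and 54.6. The array medians were 8.37 and 8.12 on the knockdown arrays, against 9.17 and 9.28 on the control arrays. The single probe set of PIERCE2, the gene that by general knowledge corresponds to FLJ27352, for which the labels name the hairpin vector, read 621 and 590 on the knockdown arrays, against 880 and 947 on the control arrays, or 66.3% of control. The PIERCE2 adjusted p was 0.000141 in the intensity-trend fit of limma and 0.273 in its common-prior fit, which thus did not call it. CIITA, the other partner of the fusion, stood at 91.6% of control at its brightest probe set (limma intensity-trend adjusted p = 0.737), at 104% at a dim one and at 127% at one below the brightness filter. Which of these probe sets read the fusion transcript is not known here. Of 9 Hodgkin marker genes 7 passed the filter, and CCL22 and IL13 did not, with CCL22 at the floor of 1 on every array. The summed intensity of the 9 was 1363 and 1344 on the knockdown arrays, against 1365 and 1374 on the control arrays, but single markers differed. FSCN1 read 507 and 500 on the knockdown arrays, against 644 and 618 on the control arrays. CD70 read 295 and 311 on the knockdown arrays, against 237 and 241 on the control arrays, and FUT4 was likewise higher on both knockdown arrays. TNFRSF8, the gene of the Hodgkin antigen CD30, read 134 and 115 on the knockdown arrays, against 110 and 115 on the control arrays. Of 8 T and NK cell marker genes, 6 lay below the brightness filter, CD3E and CD3G among them. The summed intensity of all 8 was 309 and 268 on the knockdown arrays, against 234 and 219 on the control arrays, with CD3D at 253 and 225 on the knockdown arrays, against 194 and 183 on the control arrays. The part of these marker differences in the results below was not tested.

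NF-kB dimers bind a short DNA motif known as the kappaB site. The kappaB consensus was searched on both strands from 250 bases before to 50 bases after each gene start in RefSeq promoters of GRCh38.p14. Entries existed for 8 of the 10 genes, some with several starts. At least 1 match was found for 7 of these 8 genes and in 8 of their 13 promoters, while 5.91% of all 35116 promoters held one. RELA was the gene with no match in its windows. The promoters of REL and TNFAIP3 are shown whole, because 1 probe set of each was called lower by the intensity-trend fit described below. Another probe set of each gene showed little difference, with log2 fold changes of 0.04 for REL and 0.06 for TNFAIP3. Matches are in capitals, and overlapping matches on both strands run together.
REL, chr2:60881324-60881623, plus strand: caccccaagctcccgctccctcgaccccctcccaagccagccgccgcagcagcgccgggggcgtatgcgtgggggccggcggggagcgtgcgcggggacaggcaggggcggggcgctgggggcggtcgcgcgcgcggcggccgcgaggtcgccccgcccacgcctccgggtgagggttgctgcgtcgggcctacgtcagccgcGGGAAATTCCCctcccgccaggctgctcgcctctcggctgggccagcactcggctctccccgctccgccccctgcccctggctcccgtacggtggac
TNFAIP3, chr6:137867009-137867308, plus strand: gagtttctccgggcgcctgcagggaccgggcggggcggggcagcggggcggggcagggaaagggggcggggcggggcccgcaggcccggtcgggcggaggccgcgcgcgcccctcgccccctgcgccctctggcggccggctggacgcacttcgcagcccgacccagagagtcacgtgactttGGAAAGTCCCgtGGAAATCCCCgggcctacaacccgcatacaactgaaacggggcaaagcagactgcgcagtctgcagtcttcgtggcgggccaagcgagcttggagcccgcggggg

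REL has matches on both strands that overlap by all but 1 base, between 47 and 37 bases before the start. TNFAIP3 has a pair of matches on the strand opposite the gene, 67 to 58 and 55 to 46 bases before the start. Shorter stretches around matches are given for NFKBIA, whose bright probe set was lower on both knockdown arrays, and for NFKB1 and NFKB2, where values were higher at 1 probe set each. The later NFKB2 start has a further match, 176 to 167 bases before it, that lies outside the printed stretch.
NFKBIA, chr14:35404811-35404840, minus strand: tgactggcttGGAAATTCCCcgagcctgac
NFKB1, chr4:102501300-102501329, plus strand: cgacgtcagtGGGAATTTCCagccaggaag
NFKB2, chr10:102394461-102394519, plus strand: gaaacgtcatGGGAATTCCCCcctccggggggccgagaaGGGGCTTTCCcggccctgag
NFKB2, later start, chr10:102395674-102395703, plus strand: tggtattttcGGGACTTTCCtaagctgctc
The matched letters in NFKB1 and, read from the opposite strand, in NFKBIA are the same 10 bases. A match describes the letters only and does not show that the site was bound in these cells. Genes that hold a match thus included both genes with lower and genes with higher values. Over the 930 tested genes with a match the median log2 fold change was -0.01, and it was -0.01 over the 9471 with a promoter and no match. The intensity-trend fit described below called 1.61% of genes with a match higher and 1.83% lower, against 1.43% and 1.19% without. That difference was not tested.

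**Figure D1:**
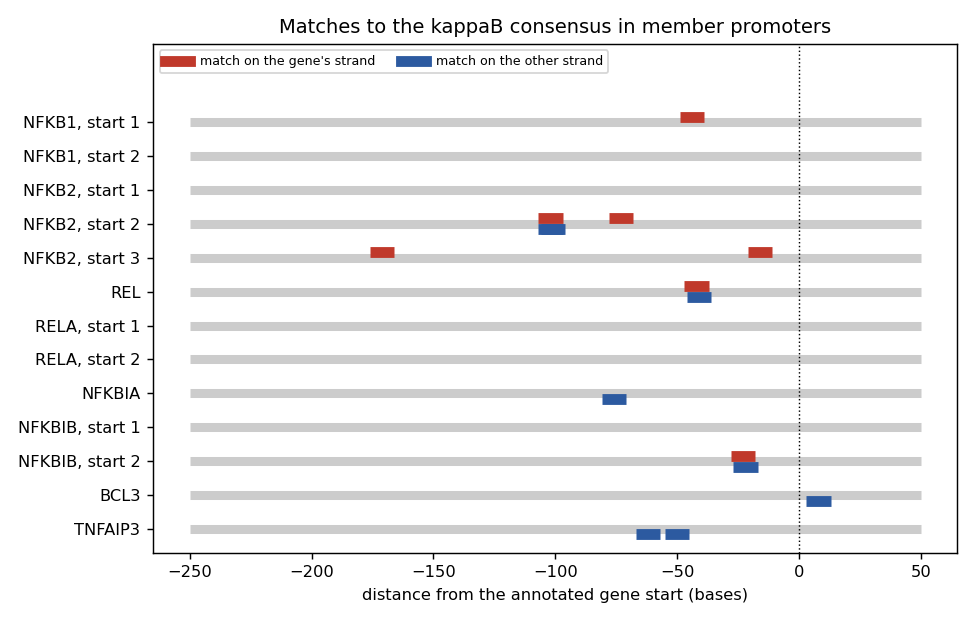
Positions of kappaB consensus matches in the RefSeq promoters of member genes, as distance from the annotated gene start in bases. Each grey bar is a promoter, red marks a match on the gene's strand and blue one on the other strand, and 8 of the 13 promoters hold a match.

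Group levels below are given as the mean intensity ± SD of the 2 arrays (n = 2 each). Fold changes subtract control from knockdown after the transformation log2(intensity + 16), so that those of dim probe sets are understated. A probe set was tested if its mean over the 4 arrays was at or above the median of all probe sets, which kept 17 of the 20. The fits were made with limma over all 27307 tested probe sets, with Benjamini-Hochberg adjustment and a threshold of 0.05. The common-prior fit uses a single prior variance and the intensity-trend fit lets it follow brightness. Neither fit called a member higher. The common-prior fit called 0 of the 17 members, with adjusted p-values from 0.293 to 0.977, while 4 had an unadjusted p below 0.05, against 13.3% of all tested probe sets. In the intensity-trend fit 6 members had one, against 16.1%. After adjustment the common-prior fit called 0% of all tested probe sets higher and 0.00732% lower. The intensity-trend fit called 2 members, both lower: 1 probe set of REL and 1 of TNFAIP3. Both calls were lost after median centring, with limma adjusted p-values of 0.0606 for REL and 0.0529 for TNFAIP3. The background of the intensity-trend fit was 1.29% called higher and 0.872% called lower. The split changed with scaling, since 59.7% of the fit's calls were higher as deposited and 84.5% after median centring. The knockdown and control arrays did not overlap at 13 of the 17, with 4 higher and 9 lower, against 46.1% of all tested probe sets (23.3% higher and 22.8% lower). Probe sets of 1 gene share its RNA, so these 13 are not independent. Some gaps were slight, as at REL 239486_at with 21.31 on a knockdown array and 21.33 on a control array. After median centring 10 of the 17 did not overlap, against 47.6% of all tested probe sets. After quantile normalization it was 12, against 46.0%. Non-overlap was also more common among brighter probe sets, at 53.2% above the 75th percentile of brightness, where 11 of 14 members did not overlap.

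**Figure D2:**
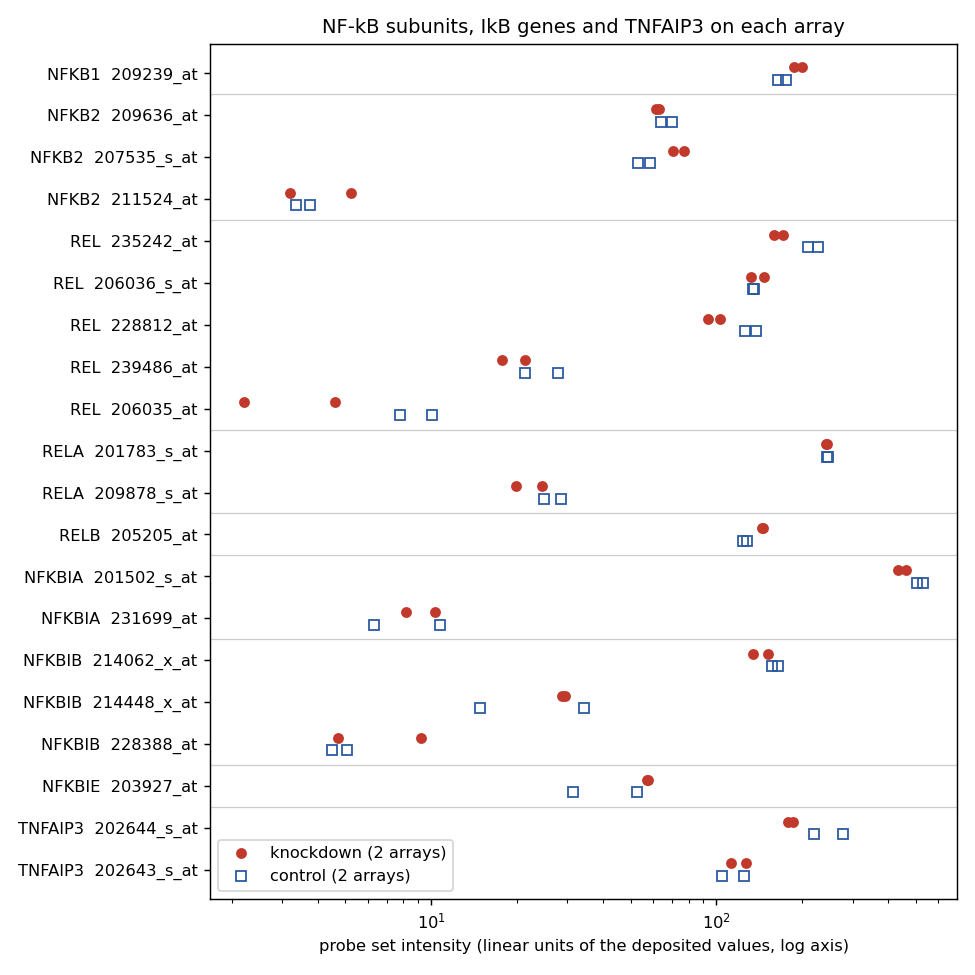
Intensity of all 20 member probe sets on each array (log axis), with knockdown arrays as red circles above control arrays as blue squares. The knockdown points of REL 235242_at and 228812_at and of TNFAIP3 202644_s_at lie left of the control points, those of RELB and NFKB2 207535_s_at lie right of them, and those of RELA 201783_s_at nearly coincide with them.

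REL, the c-Rel subunit that is abundant in activated B cells, had lower values on the knockdown arrays at 4 of its 5 probe sets. At the brightest, 235242_at, REL read 159 and 172 on the knockdown arrays, against 227 and 209 on the control arrays. The group means of 165 ± 8.89 in knockdown and 218 ± 13.1 in control put knockdown at 75.8% of control. The log2 fold change of -0.37 (SE 0.11) passed the intensity-trend fit (limma adjusted p = 0.0349) and not the common-prior fit (adjusted p = 0.293). Over 13 alternatives the intensity-trend adjusted p ranged from 0.00367 to 0.184, and the call was lost in 5 of them, including without control replicate 1 (0.108), without knockdown replicate 1 (0.184) and without knockdown replicate 2 (0.0766). Probe set 228812_at showed the same size of difference, with 103 and 93.5 on the knockdown arrays, against 138 and 126 on the control arrays. Its log2 fold change was also -0.37 (SE 0.11), at an adjusted p of 0.0583 in limma's intensity-trend fit. A dimmer probe set, 239486_at, read 17.7 and 21.3 on the knockdown arrays, against 27.9 and 21.3 on the control arrays (-0.19) and the groups all but touched. The dimmest, 206035_at, lay below the filter and was not tested, with 2.21 and 4.59 on the knockdown arrays, against 10.1 and 7.76 on the control arrays.

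The remaining REL probe set did not follow. At 206036_s_at REL read 146 and 132 on the knockdown arrays, against 136 and 134 on the control arrays, and the groups overlapped. Its log2 fold change was 0.04, with a 95% interval of -0.22 to 0.30 in the common-prior fit. The fold change at 235242_at was thus 0.41 lower on the log2 scale than at 206036_s_at, and that at 228812_at 0.41 lower as well. On each array the log2 value of 235242_at exceeded that of 206036_s_at by 0.11 and 0.34 in knockdown, against 0.68 and 0.58 in control, with no overlap. Single probe sets did not overlap at 46.1% of all tested, and no such share was computed for differences between probe sets. With 2 arrays against 2 a 2-sided exact permutation test cannot go below p = 0.333, and no other test of this disagreement was made. The sources used here do not say which REL transcripts each probe set reads.

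RELA, the transactivating p65 subunit of the classical dimer, was the most even member. Its bright probe set 201783_s_at read 243 on each knockdown array, against 246 and 244 on the control arrays. The log2 fold change was -0.01 (95% interval -0.26 to 0.24), and it was 0.05 after median centring, the only member direction that turned with a change of scaling. The dimmer RELA probe set 209878_s_at read 24.5 and 19.8 on the knockdown arrays, against 25.0 and 28.6 on the control arrays (-0.17, 95% interval -0.45 to 0.11).

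RELB and NFKB2 form the dimer of the non-canonical branch. RELB read 146 and 144 on the knockdown arrays, against 124 and 128 on the control arrays. Its means were 145 ± 1.20 in knockdown and 126 ± 2.53 in control, and the log2 fold change of 0.18 (SE 0.11) exceeded the range within each group without passing limma's intensity-trend fit (adjusted p = 0.352). NFKB2, which encodes the p100 precursor of p52, gave no single answer. At 207535_s_at it read 70.3 and 76.9 on the knockdown arrays, against 58.6 and 53.2 on the control arrays, a log2 fold change of 0.32 (SE 0.11) with adjusted p-values of 0.320 in the common-prior and 0.157 in the intensity-trend fit of limma. At 209636_at NFKB2 read 63.2 and 61.7 on the knockdown arrays, against 69.7 and 63.8 on the control arrays (-0.08). The fold changes of these probe sets differed by 0.39 on the log2 scale, and the ratio between them did not overlap between the groups. Non-overlap was common, at 46.1% of all tested probe sets taken singly, and its share among ratios was not computed. The remaining NFKB2 probe set was untested, with 3.21 and 5.24 on the knockdown arrays, against 3.37 and 3.75 on the control arrays. NFKB1, the gene of p105 and its product p50, has 1 probe set, which read 199 and 187 on the knockdown arrays, against 165 and 176 on the control arrays. The NFKB1 log2 fold change was 0.16 (SE 0.11), at an adjusted p of 0.371 in limma's intensity-trend fit. Over the 10 tested probe sets of the 5 subunits, 3 lay higher on both knockdown arrays, 6 lower and 1 overlapped, with a median log2 fold change of -0.04. Among all tested probe sets 23.3% lay higher and 22.8% lower. The 6 include RELA 201783_s_at, at only -0.01, and several probe sets of the same gene, so they are not independent.

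**Figure D3:**
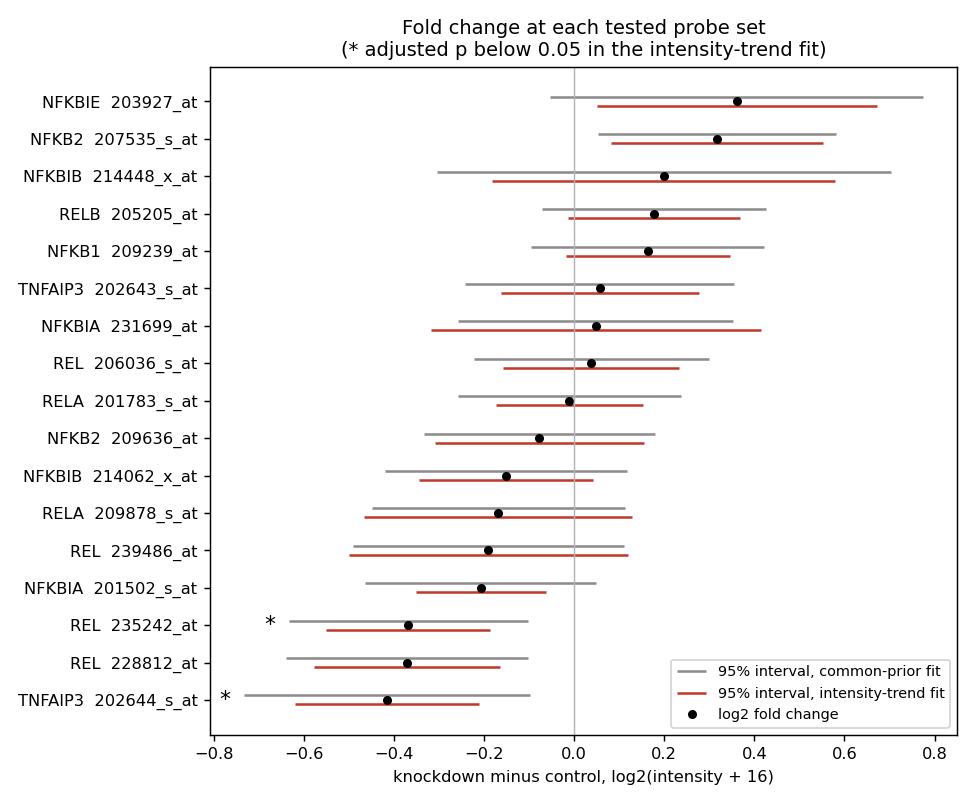
Log2 fold change of the 17 tested probe sets, knockdown minus control, with 95% intervals of the common-prior fit in grey and of the intensity-trend fit in red. Values run from -0.42 for TNFAIP3 202644_s_at to 0.36 for NFKBIE, and asterisks mark the 2 probe sets called by the intensity-trend fit.

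No probe set of an IkB gene passed either fit. NFKBIA encodes IkB alpha, the fast feedback inhibitor that NF-kB induces. Its bright probe set 201502_s_at read 460 and 434 on the knockdown arrays, against 532 and 505 on the control arrays, so that knockdown stood at 86.2% of control. The log2 fold change of -0.21 (SE 0.11) exceeded the range within each group, and its adjusted p was 0.454 in the common-prior and 0.131 in the intensity-trend fit of limma. The dim NFKBIA probe set 231699_at read 8.19 and 10.3 on the knockdown arrays, against 6.29 and 10.8 on the control arrays, and overlapped.

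NFKBIB encodes IkB beta, a slower relative of IkB alpha. At 214062_x_at it read 152 and 134 on the knockdown arrays, against 164 and 157 on the control arrays (-0.15, 95% interval -0.42 to 0.12). At 214448_x_at NFKBIB read 28.8 and 29.6 on the knockdown arrays, against 34.3 and 14.8 on the control arrays, and the wide spread of the controls covered the knockdown values. The suffix of both marks probes that may cross-hybridise, so the level of NFKBIB is uncertain. Its remaining probe set, 228388_at, was untested at 9.24 and 4.70 on the knockdown arrays, against 5.07 and 4.51 on the control arrays.

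NFKBIE encodes IkB epsilon, an inhibitor that binds dimers of REL and RELA. NFKBIE read 57.1 and 57.7 on the knockdown arrays, against 31.4 and 52.8 on the control arrays. It had the highest fold change of the tested members, 0.36 (SE 0.18), but the controls alone spanned 0.54 on the log2 scale, more than the difference between the groups. Its adjusted p was 0.227 in limma's intensity-trend fit. Control replicate 1 set most of this difference, since without it the log2 fold change was 0.09, and without control replicate 2 it was 0.63, a call in the intensity-trend fit of limma (adjusted p = 0.0332). Its adjusted p ranged from 0.0332 to 0.752 over 12 alternatives.

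TNFAIP3 had the lowest fold change of the tested members, at 1 of its 2 probe sets. At 202644_s_at TNFAIP3 read 185 and 178 on the knockdown arrays, against 220 and 278 on the control arrays. The means of 182 ± 5.30 in knockdown and 249 ± 40.9 in control put knockdown at 72.9% of control. The log2 fold change of -0.42 (SE 0.13) passed limma's intensity-trend fit (adjusted p = 0.0344) and not the common-prior fit (adjusted p = 0.304). Over 13 alternatives the intensity-trend adjusted p ranged from 0.000730 to 0.190, and the call was lost in 4. Control replicate 2 carried much of the difference, since without it the log2 fold change was -0.26 (adjusted p = 0.190), and without knockdown replicate 2 the adjusted p was 0.112. At 202643_s_at TNFAIP3 read 112 and 127 on the knockdown arrays, against 104 and 125 on the control arrays, and the groups overlapped (0.06, 95% interval -0.24 to 0.36). The fold changes of the TNFAIP3 probe sets differed by 0.47 on the log2 scale. On each array 202644_s_at exceeded 202643_s_at by 0.65 and 0.44 in knockdown, against 0.97 and 1.07 in control. Of the 6 members with more than 1 tested probe set, 5 had probe sets on both sides of 0, and RELA alone did not. Most of these opposite signs were unstable, since the value above 0 fell below it with 1 array left out. It fell as low as -0.03 at REL 206036_s_at, -0.08 at NFKBIA 231699_at, -0.16 at NFKBIB 214448_x_at and -0.06 at TNFAIP3 202643_s_at. NFKB2 alone kept both signs in every alternative. The share of such genes over the whole array was not computed.

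Genes around the subunits were summarised at the brightest probe set of each gene, in 3 lists. These lists too were chosen with earlier results of these data known. Over all 12922 genes treated this way the median log2 fold change was -0.01, with 1.35% called higher and 1.21% lower by the intensity-trend fit. The common-prior fit called no gene of the lists. The list of upstream signalling genes, which holds kinases, adaptors and ubiquitin ligases, had 22 of 30 genes tested, 12 above 0 and 10 below, with a median of 0.01. The intensity-trend fit called 2 of them, both lower. TANK, an adaptor that binds TRAF proteins, read 224 and 188 on the knockdown arrays, against 286 and 268 on the control arrays (-0.40, limma adjusted p = 0.0258). Its other tested probe sets gave -0.10 and 0.03. BIRC2, the ubiquitin ligase cIAP1, read 293 and 248 on the knockdown arrays, against 327 and 367 on the control arrays (-0.34, limma adjusted p = 0.0483). The BIRC2 call was lost in 7 of 13 alternatives, among them leaving out control replicate 2 or knockdown replicate 2, with an adjusted p up to 0.462. The TANK call was lost in 4, namely with no filter and without control replicate 1, control replicate 2 or knockdown replicate 2, with an adjusted p up to 0.313.

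None of the other signalling genes passed. In each direction the 3 genes of smallest common-prior p are named, which adds TRAF6 below 0 and BTRC, MALT1 and MYD88 above it. TRAF6, a ubiquitin ligase below interleukin-1 and Toll-like receptors, gave -0.28 at 20.5 ± 0.87 in knockdown and 28.4 ± 0.71 in control. BTRC, which recognises phosphorylated IkB proteins for breakdown, gave 0.24. MALT1, the protease of antigen receptor signalling, gave 0.21 at its brightest probe set and -0.44 and 0.04 at others, and MYD88, the Toll-like receptor adaptor, gave 0.16. Several genes below 0 had a smaller p than these last 3. TBK1, a kinase related to the IkB kinases and named after its values were seen, had the lowest fold change of the list. It read 119 and 94.8 on the knockdown arrays, against 124 and 172 on the control arrays (-0.41, limma intensity-trend adjusted p = 0.106).

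The list of further brakes on the pathway had 18 of 20 genes tested, 9 on each side of 0, with a median of 0.00. COMMD1, which promotes the breakdown of chromatin-bound RELA, was the 1 gene called by the intensity-trend fit. It read 355 and 384 on the knockdown arrays, against 282 and 287 on the control arrays (0.36, limma adjusted p = 0.0197). That call was lost in 4 of 13 alternatives, the same settings as for TANK, with an adjusted p up to 0.209 without knockdown replicate 2. TNIP2, a binding partner of A20, gave 0.31 at its brightest probe set and 0.05 and -0.23 at others. OTULIN, a deubiquitinase of linear chains, gave 0.25. NFKBIZ, an atypical nuclear IkB protein, gave -0.25, and OTUD7B, a relative of A20 that counters non-canonical signalling, gave -0.42 at 12.2 and 13.5 on the knockdown arrays, against 14.9 and 32.3 on the control arrays. Other tested probe sets gave 0.04 and -0.20 for OTUD7B and -0.06 for NFKBIZ. IKBIP, named for its link to an IkB kinase, gave -0.17 with overlapping groups, and 0.18 and 0.02 at other probe sets. None of these 5 passed either fit.

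The list of NF-kB target genes had 35 of 40 tested, 19 above 0 and 16 below, with a median of 0.03. ICAM1, an adhesion molecule, was the 1 called by the intensity-trend fit. It read 490 and 450 on the knockdown arrays, against 320 and 350 on the control arrays (0.47, limma adjusted p = 0.00360). That call held in all 13 alternatives, with adjusted p-values up to 0.0363, and the other ICAM1 probe sets gave 0.29 and 0.56. BCL2L1, the survival gene of BCL-XL, gave 0.33 at its brightest probe set and -0.23 at a dim one, and IER3, an immediate early gene, gave 0.27. IL6 gave -0.36 at 103 and 92.1 on the knockdown arrays, against 108 and 155 on the control arrays. TNFAIP8, a regulator of cell death, gave -0.27, and CFLAR, the caspase-8 inhibitor c-FLIP, gave -0.28. These last 5 passed neither fit at their brightest probe sets. Another CFLAR probe set, 210563_x_at, named after its values were seen, read 224 in knockdown and 303 in control (-0.40, limma intensity-trend adjusted p = 0.0498). Its suffix, shared by the brightest CFLAR and TNFAIP8 probe sets, marks probes that may cross-hybridise. The 9 further tested CFLAR probe sets, 210563_x_at included, ran from -0.40 to 0.32. Matches to the kappaB consensus were present in 40.6% of the 32 target genes with a promoter entry, 27.8% of 18 brakes and 15.4% of 26 signalling genes, beside 7.09% of all genes.

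**Figure D4:**
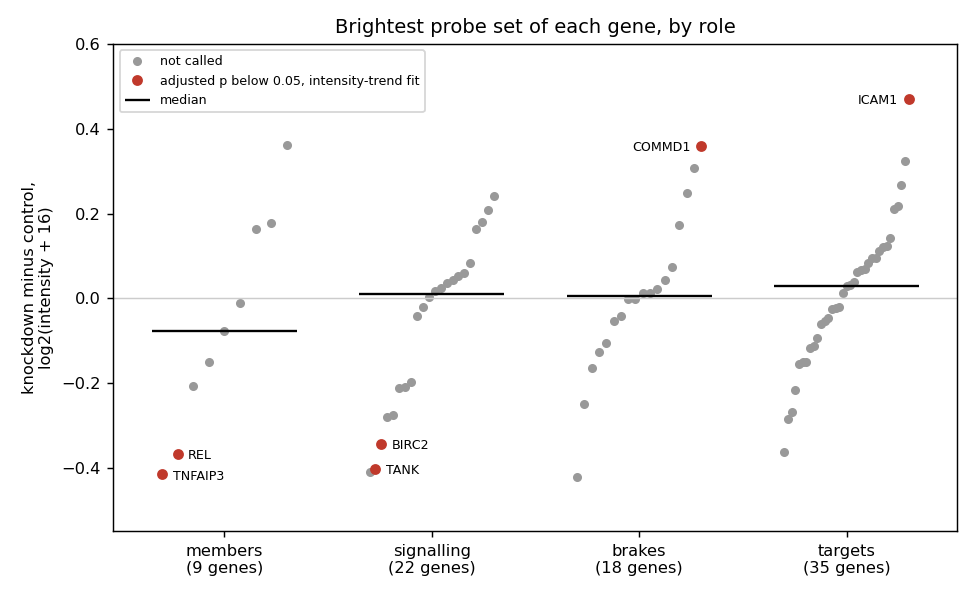
Log2 fold change, knockdown minus control, at the brightest probe set of each tested gene, for the 9 members and the lists of signalling genes, further brakes and targets. Red points passed the intensity-trend fit and black lines are medians, which lie at -0.08 for the members and between 0.00 and 0.03 for the lists. The median of the members is the value of NFKB2 209636_at and depends on the choice of probe sets. Over all 17 tested member probe sets it was -0.010, against -0.004 for all tested probe sets. After median centring these were 0.047 and 0.054.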

How the data were processed

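Biotin-labelled cRNA was made by the 1-cycle Affymetrix method, per the labels' protocols. The authors deposited linear intensities of 54613 probe sets on each array. The sources used here do not say how these were computed from the scanned features. The array means were nearly equal, and only 2 values lay below 1, where a floor appears to sit.

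Probe sets were named through the platform annotation, in which 1801 have several genes and 11721 none. Intensities were turned into log2(intensity + 16) and left uncentred, since the array medians spanned 0.07 on that scale, under a limit of 0.2. Both knockdown medians lay below both control medians, so the offset follows the groups. With median centring the log2 fold change of REL 235242_at was -0.31 in place of -0.37. The filter removed probe sets whose mean log2 value was under the overall median (4.60). The 2 groups were fitted by lmFit and eBayes of limma 3.58.1 (R 4.3.3), with a common prior and with an intensity trend. Scripts were tested on simulated data. Members and lists were chosen with earlier results of these data known. The named genes are all members at each one-gene probe set and, in each pathway list, the genes past either fit (up to 8) and the 3 of smallest common-prior p per direction. Replicate numbers were not used as pairs in the main fits. The control difference correlated with the knockdown difference at -0.01 across probe sets. That shows no shared pattern across probe sets. A correlation does not register a uniform shift, and it cannot tell whether the arrays were handled in pairs. Alternatives covered pseudocounts of 1 and 64, filters, normalization, probe set choice, hyperparameters, the threshold, a replicate block and leaving out each array. The few arrays limit precision.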

Additional observations from a re-analysis of the deposited data

How the results depend on the processing

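The common-prior fit called 2 probe sets in all. The count was 0 with a pseudocount of 1 and with no filter, 663 (408 higher and 255 lower) with a pseudocount of 64 and 62 with the filter at the 75th percentile, and 0 to 3 with single arrays left out. Its count of called members was 0 throughout, except 3 with a pseudocount of 64: REL 235242_at, REL 228812_at and TNFAIP3 202644_s_at, all lower. The intensity-trend fit called 591 in all, against 101 with no filter, 952 with the filter at the 75th percentile, 387 with the brightest probe set of each gene, 1462 with the replicate block, 1127 at a threshold of 0.10 and 195 to 563 with single arrays left out. The share called higher was 59.7%, against 80.2% with no filter, 84.5% with median centring and 40.7% without knockdown replicate 1. The intensity-trend fit called 2 members, against 0 with no filter and with median centring, 4 with the replicate block (NFKBIA 201502_s_at and REL 228812_at added) and 0 to 2 with single arrays left out. With no filter the numbers tested doubled to 54613. Without control replicate 2 NFKBIE was called in place of TNFAIP3. The cause of the other differences was not tested. Of 196 recomputed member values, 7 changed sign, at 5 probe sets whose deposited-scale value was at most 0.20 in size. They were 6 values with an array left out and RELA 201783_s_at under median centring. The 3 untested member probe sets were too dim for the filter.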
